A study of Mus musculus with 16 samples.

Results

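The genes described here encode the proteins of the cytosolic ribosome and some paralogs of them, measured in CD4+ T cells that lack MALT1. A gene was a member when its symbol in the array's annotation named a cytosolic large or small subunit protein (Rpl, Rps), a stalk protein (Rplp0 to Rplp2) or Rpsa, with the Rps6k kinases left out. The array held 81 probes for 63 such genes, and 57 of the genes had a probe with a detection p-value under 0.05 on at least 4 of the 16 arrays. These 57 genes, each read through its brightest probe, were followed among 8480 genes tested. They comprised 30 genes of the large (60S) subunit, 22 of the small (40S) subunit, 2 of the stalk and 3 paralogs whose names end in l1 or l (Rpl7l1, Rpl22l1 and Rps27l). The choice used no measured difference between groups.

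All cells came from 4 MALT1-deficient C57BL/6 mice, so every group, controls included, lacked the endogenous protein. MALT1, a paracaspase, acts downstream of the T cell receptor in NF-kB activation. By retrovirus, cells of each mouse received isoform A of MALT1, its isoform B or mock, and they were then stimulated through CD3 and CD28 for 2.5 h. A further portion of the isoform A cells was left unstimulated. Each of the 4 groups (isoform A unstimulated, isoform A stimulated, isoform B stimulated and mock stimulated) therefore held 4 arrays, 1 per mouse, and no unstimulated mock or isoform B cells were among the samples. Neither the age of the mice nor the promoter that drove the retroviral MALT1 is stated in the sources used here.

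The ribosome is built from a large and a small subunit, each an assembly of ribosomal RNA and many small proteins that it needs in equal amounts. The mRNAs of these proteins are among the most abundant of a mammalian cell. Most carry a terminal oligopyrimidine (TOP) tract, a C followed by a run of pyrimidines at the very 5′ end, through which mTOR signalling and the RNA-binding protein Larp1 set how much of the mRNA is translated. When a resting T cell is activated, it enlarges and makes more ribosomes before it divides. Part of that increase can come from translation of mRNA that is already stored, which an array of total RNA does not measure.

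Start regions of 8 members are shown because the TOP tract is the feature this gene family is known for. The genes with the largest rise and the largest fall on stimulation showed no such tract in the windows searched. Each sequence holds the 15 bases before and the 15 bases from the transcription start that RefSeq annotates (GRCm38.p6), 5′ to 3′ on the gene's own strand. Capitals mark a C followed by at least 5 pyrimidines.
Rps6: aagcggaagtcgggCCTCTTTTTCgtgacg
Rps27: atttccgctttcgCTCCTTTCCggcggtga
Rpl35: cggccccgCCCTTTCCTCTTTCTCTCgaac
Rpl38: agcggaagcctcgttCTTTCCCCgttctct
Rps15a: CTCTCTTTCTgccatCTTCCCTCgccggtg
Rpl22l1: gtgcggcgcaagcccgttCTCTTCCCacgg
Rpl22: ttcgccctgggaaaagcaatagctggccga
Rpl7l1: gtgaggctgcgcaagcgcagtagctgaagc
The regions are chr4:86857353-86857382 (minus strand) for Rps6, chr3:90213634-90213663 (minus) for Rps27, chr2:39005117-39005146 (minus) for Rpl35 and chr11:114668565-114668594 (plus) for Rpl38. Those of the other genes are chr7:118116133-118116162 (minus) for Rps15a, chr3:28805493-28805522 (plus) for Rpl22l1, chr4:152325711-152325740 (plus) for Rpl22 and chr17:46782642-46782671 (minus) for Rpl7l1. Rps6, Rps27, Rpl35, Rpl38 and Rps15a, which was among the members called higher, show a pyrimidine run at or beside the start, and in Rpl22l1, also called higher, a run begins after it. Rpl7l1 and Rpl22 have no such run in these windows, and the window of another start that RefSeq gives for Rpl22 had none either. Further upstream of the Rpl7l1 and Rpl22 starts shown, outside the windows, such runs occur and were not counted. Whether these genes lack a TOP tract was therefore not settled.

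Of the 57 members, 49 had an entry in the RefSeq promoter table. The start marked in an entry matched that of RefSeq's gene table for 73.3% of genes on the plus strand. A pyrimidine run on the gene's strand within 15 bases of the start was found for 27 of 49 members (55.1%), against 25.9% of 17492 protein-coding genes. The motif CCGGAA, the core that Ets family factors bind, was searched on both strands of the 300-base entries and occurred in 26 of 49 members (53.1%), against 20.9% of all protein-coding genes. The Myc-type E-box CACGTG occurred in 5 of 49 members (10.2%), against 8.91%. A match describes the letters of the window and is not shown to be a used site. For Rpl7l1, the member that rose most, the 250 bases before the start (chr17:46782657-46782906, minus strand) are shown with the CCGGAA motif in capitals.
Rpl7l1 upstream: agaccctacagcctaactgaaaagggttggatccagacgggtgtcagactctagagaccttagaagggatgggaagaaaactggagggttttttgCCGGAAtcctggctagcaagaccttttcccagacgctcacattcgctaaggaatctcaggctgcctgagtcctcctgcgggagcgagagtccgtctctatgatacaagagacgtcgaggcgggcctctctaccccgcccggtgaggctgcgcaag

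The 16 arrays had unnormalized median intensities of 121.8 to 138.8. Unstimulated arrays had 11239 to 12085 probes detected and stimulated arrays 10247 to 11012. The Malt1 probe was detected on 4 of 16 arrays, at 120.1 to 140.4, and it is not known here whether it lies in the deleted or the reconstituted sequence, so it does not check the labels. Of 10 markers of CD4 T cells, 9 were measured, and no probe was annotated to Lck. Their summed background-corrected intensity, with no scaling between arrays, was 52410 to 58750 in unstimulated and 38040 to 55490 in stimulated cells. Of 9 markers of CD8 and cytotoxic lymphocytes 7 were measured (12970 to 23810), namely Cd8b1, Prf1, Gzma, Klrd1, Klrk1, Nkg7 and Ctsw. The probes of Cd8a and Ncr1 were not detected. Of 8 B cell markers 3 were measured, at 52.2 to 85.8 in unstimulated and 29.7 to 54.4 in stimulated cells. Another 4, Cd79a and Pax5 among them, had probes that were not detected, and 1 had no probe under its symbol. A single macrophage or dendritic cell marker of 9 was measured (59.0 to 152.4), 5 had no detected probe and 3 no probe under their symbol. All these sums are unscaled, and the median over all genes was also lower on stimulated arrays, as given below. After normalization, 1 of the 3 B cell markers was called lower in stimulated isoform A cells and 0 higher (median 0.06). Of the 7 CD8 and cytotoxic lymphocyte markers 2 were called lower and 1 higher (median 0.04). Of the 9 CD4 T cell markers 5 were called lower and 1 higher (median -0.25), where 66.4% of all genes were called. RNA was taken from whole cell populations, so fewer cells of a type and less RNA per cell cannot be told apart.

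Most members sat at the very top of the arrays' range. The 81 member probes held 29 to 35 of the 100 brightest probes of each array, and they contributed 8.38% to 9.74% of the background-corrected signal. Probe brightness depends on the probe as well as on the mRNA, so it does not rank the genes. The stalk gene Rplp1, which with Rplp2 forms the flexible arm that recruits elongation factors, had the brightest member probe, with an unnormalized intensity of 32040 to 43710. The next were Rpl41, Rpl38, Rpl9, Rps20 and Rps4x, all with mean log2 intensities between 14.78 and 15.05 after normalization. At the other end lay Rpl22 (8.57), Rps15a (6.53), Rpl21 (6.26), Rpl22l1 (6.06), Rpl6 (5.06) and Rpsa (5.01). Rpl6, a 60S protein, was detected on 8 of 16 arrays and Rpsa, a 40S protein also known as the laminin receptor, on 7.

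6 member genes passed no detection threshold and were not tested. Rpl14, Rpl17, Rps23 and the tissue-restricted paralogs Rpl3l and Rpl39l were detected on 0 arrays, at 108.5 to 136.8. Rplp2 was detected on 3 arrays, at 109.0 to 148.2. The brightest probe of these genes was close to the arrays' median intensity, and a dim probe gives only a bound on its mRNA. Rpl7, Rpl11, Rpl10l and Rps27a were under no symbol of the annotated list used here.

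After quantile normalization, stimulated isoform A cells differed little from unstimulated ones in the median of the ribosomal protein mRNAs. The paralog Rpl7l1 was higher and Rpl22 lower by the largest amounts. The family's median depends on the scaling of the arrays, and it was 0.23 and 0.56 under other scalings described below. Of 57 members, 14 passed limma's test against unstimulated isoform A cells after Benjamini-Hochberg adjustment over all genes, 7 higher and 7 lower. That was 24.6% of members, where 66.4% of all genes tested were called. In the separate directions 29.6% of all genes were called higher and 36.8% lower, where 7 of 57 members were called in each. The members' differences had a median of -0.03 on the log2 scale, against -0.02 over all genes, and ran from -1.09 to 1.25. As many as 51 of 57 members (89.5%) lay within 0.5 of 0, where 46.8% of all genes did, and 44 members (77.2%) lay within 0.25, against 27.9%. The median SE of a difference was 0.088 for members and 0.13 over all genes. In 11 members (19.3%) the arrays of both groups did not overlap, 6 higher and 5 lower, where 61.5% of all genes did not overlap. Within mice 1 to 4 the members' median was -0.02, -0.09, -0.01 and -0.05.

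**Figure D1:**
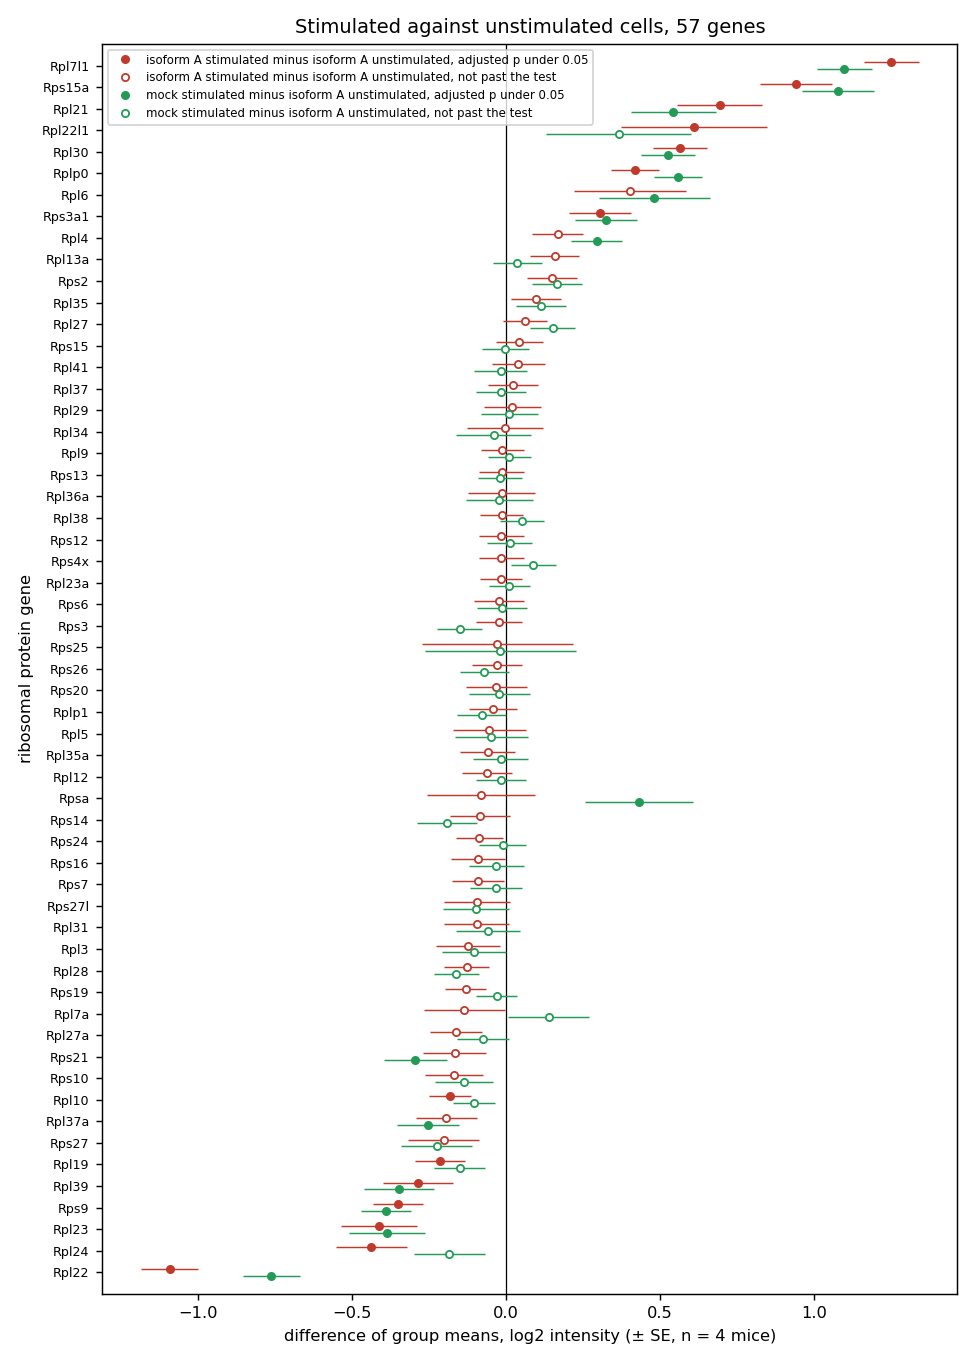
Difference of group means on the log2 scale (± SE, n = 4 mice per group) for the 57 measured ribosomal protein genes, isoform A stimulated (red) and mock stimulated (green), each minus the same isoform A unstimulated arrays. Filled points passed the test at an adjusted p under 0.05, and 51 of 57 genes lie within 0.5 of 0 in each comparison.

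The calls split by brightness. Of the 44 members with a mean log2 intensity of at least 12 over all arrays, 6 were called (13.6%), all lower, and none lay more than 0.44 from 0. Of the other 305 genes past that limit, 221 were called (72.5%), 112 higher and 109 lower. Above the limit the 2 classes were not matched in brightness, and member probes held 29 to 35 of the 100 brightest on each array. Genes entered this class by their mean over all 16 arrays, of which 12 were of stimulated cells. The median SE was 0.084 for the bright members and 0.089 for the other bright genes. Of the 13 dimmer members 8 were called (61.5%), 7 of them higher, where 66.5% of other genes under that brightness were called. All 7 members called higher were among these 13. The brightness limit of 12 was chosen after the values were seen.

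By subunit, 2 of 30 60S members were higher and 6 lower, with a median of -0.04. Of 22 40S members 2 were higher and 1 lower, with a median of -0.03. For comparison, 52 of 70 mitochondrial ribosomal protein genes were called (74.3%), 29 higher and 23 lower, with a median of 0.09.

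Rpl7l1 is a paralog of Rpl7 and the counterpart of yeast Rlp7, an assembly factor of the pre-60S particle. Its unnormalized intensity in unstimulated isoform A cells of mice 1 to 4 was 832, 1035, 1113 and 895. In stimulated isoform A cells it was 1877, 2107, 1737 and 1736. In isoform B cells it was 1998, 1963, 1757 and 1504, and in mock cells 1935, 1596, 1663 and 1554. Every stimulated array lay above every unstimulated array. Rpl7l1 rose by 1.25 ± 0.089 (SE, log2, 2.38-fold, adjusted p = 1.16e-09, limma) in isoform A cells. A further, dim probe of Rpl7l1 at 134.3 to 184.5 also rose, by 0.93 ± 0.13 (adjusted p over all detected probes = 4.27e-06, limma).

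Rpl22 is a 60S protein that ribosomes can do without in mice but that developing alpha-beta T cells need. Its unnormalized intensity was 833.5, 975.1, 846.2 and 714.4 in unstimulated cells of mice 1 to 4. Stimulated isoform A cells gave 383.1, 438.3, 338.7 and 330.8, and isoform B cells gave 445.5, 409.3, 346.4 and 316.4. Mock cells gave 591.7, 423.9, 420.1 and 389.5. The unstimulated arrays lay above all others, and within every mouse the mock array lay above the isoform A array on the normalized scale. Rpl22 fell by 1.09 ± 0.093 (SE, log2, 2.13-fold, adjusted p = 1.17e-08, limma) on stimulation of isoform A cells.

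Rpl22l1, the paralog that Rpl22 represses in mice and that can take its place, was dim on every array. Its normalized log2 intensity was 5.61, 5.29, 6.04 and 5.99 in unstimulated cells of mice 1 to 4. Stimulated isoform A cells gave 6.18, 6.02, 6.72 and 6.45. It was higher in all 4 mice although the groups overlapped, by 0.61 ± 0.24 (adjusted p = 0.0305, limma). That call was the least stable of the 14 together with Rpl39 and Rpl10, and it held in 12 of 20 alternative settings. It was no longer past the test without the unstimulated array of mouse 1 (0.57) or mouse 2 (0.46), or without the stimulated array of mouse 3 (0.49) or mouse 4 (0.57).

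Rpl30, a 60S protein, had unnormalized intensities of 2324, 2577, 2732 and 2193 in unstimulated cells. In stimulated isoform A cells they were 3560, 3986, 3532 and 3123. The groups did not overlap, and Rpl30 rose by 0.57 ± 0.088 (1.48-fold, adjusted p = 1.98e-05, limma). Rpl7l1, Rpl22 and Rpl30 were also the only 3 of 57 members whose unnormalized signals in the 2 isoform A groups did not overlap, where 57.1% of all genes did not.

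The other members called higher depended more on the normalization. Rps15a, a 40S protein, rose by 0.94 ± 0.12 (adjusted p = 1.47e-06, limma). Its unnormalized intensities were 162.8 to 196.6 in unstimulated and 179.4 to 228.4 in stimulated isoform A cells, so they overlapped and lay not far above the arrays' median. Rpl21, a 60S protein, rose by 0.69 ± 0.14 (adjusted p = 0.000241). Its unnormalized intensities were 172.0 to 198.4 in unstimulated and 172.3 to 198.3 in stimulated isoform A cells, the same range. Rps3a1, a 40S protein, rose by 0.31 ± 0.10 (adjusted p = 0.0125), and was at 0.24 and not called without the unstimulated array of mouse 3. Each of these was higher in all 4 mice on the normalized scale.

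Among stalk genes, Rplp0, which anchors the Rplp1 and Rplp2 dimers to the 60S subunit, rose by 0.42 ± 0.078 (adjusted p = 0.000133, limma). Its normalized log2 intensities were 8.49, 8.61, 8.39 and 8.60 in unstimulated cells and 8.88, 8.98, 8.98 and 8.92 in stimulated isoform A cells. Those groups did not overlap, while the unnormalized intensities (522.0 to 625.0 and 518.1 to 664.2) did. Rplp1 differed by -0.04 (adjusted p = 0.664), and its normalized log2 intensity was between 15.01 and 15.26 on all arrays, close to the upper end of the scale that quantile normalization gives to every array.

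Members called lower other than Rpl22 were bright and moved little. Rpl24, which forms a bridge between the subunits, was lower by 1.35-fold, at -0.44 ± 0.12 (adjusted p = 0.00283, limma). Its normalized log2 intensities were 13.60, 13.63, 13.29 and 13.53 in unstimulated cells and 13.35, 13.26, 12.79 and 12.90 in stimulated isoform A cells. These groups overlapped, though the value was lower in all 4 mice. Rpl23, a 60S protein at the subunit interface that also binds Mdm2, differed by -0.41 ± 0.12 (adjusted p = 0.00712), and the 40S protein Rps9 by -0.35 ± 0.082 (adjusted p = 0.00107). Rpl39, which lines the peptide exit tunnel, differed by -0.29 ± 0.11, Rpl19 by -0.21 ± 0.082 and Rpl10, a protein added late to the 60S particle, by -0.18 ± 0.067, with adjusted p-values of 0.0337, 0.0288 and 0.0245. These last 3 calls were each lost without the unstimulated array of mouse 2 or the stimulated array of mouse 3 or 4, and those of Rpl39 and Rpl10 also without the unstimulated array of mouse 1. The values were then -0.25 to -0.23 for Rpl39, -0.20 to -0.16 for Rpl19 and -0.17 for Rpl10. All 6 of these turned to positive differences, from 0.21 to 0.49, when arrays were scaled on the probes detected on all arrays, as described below.

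**Figure D2:**
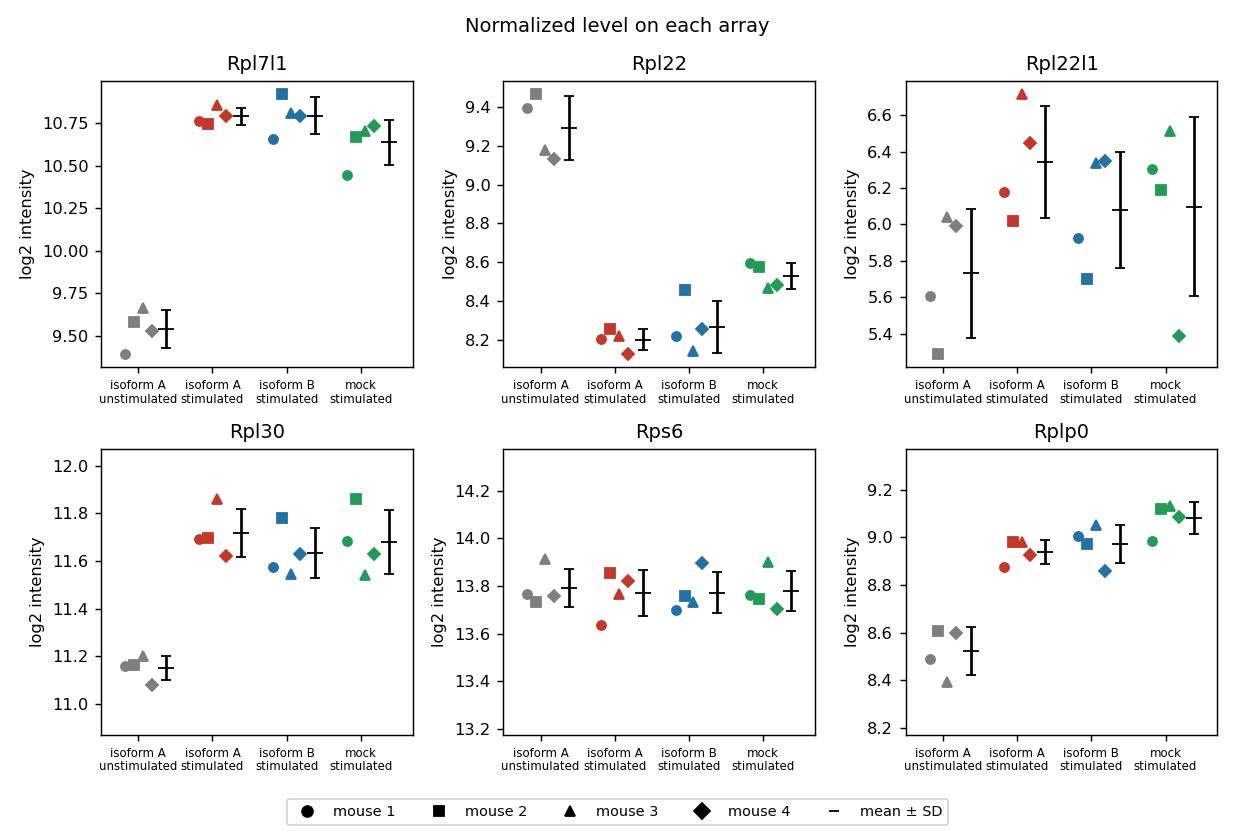
Normalized log2 intensity of 6 members on each of the 16 arrays, by group, with a symbol per mouse and the group mean ± SD (n = 4) in black. Rpl7l1, Rpl30 and Rplp0 lie higher and Rpl22 lower on every stimulated than on every unstimulated array, Rpl22l1 overlaps between groups, and Rps6 stays between 13.64 and 13.91.

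Several members of known individual roles were not called. Rps6, the 40S protein phosphorylated by S6 kinase downstream of mTOR, had unnormalized intensities of 13351, 13308, 15791 and 12158 in unstimulated cells. In stimulated isoform A cells they were 14569, 17385, 12888 and 13596, and the difference was -0.02 (adjusted p = 0.827, limma). Rpl5, which carries 5S RNA into the large subunit and binds Mdm2, differed by -0.05 (adjusted p = 0.713). Rps19, mutated in Diamond-Blackfan anaemia in humans, differed by -0.13 (adjusted p = 0.0988), Rps4x by -0.02 (0.866) and Rpl3 by -0.12 (0.311). Rpl13a, a 60S protein that in human cells can leave the ribosome to silence inflammatory mRNAs, differed by 0.16 (0.0937). Rps27 and its p53-induced paralog Rps27l differed by -0.20 (0.137) and -0.09 (0.461), and Rps27 passed the test, at -0.28, without the stimulated array of mouse 1. Rpsa differed by -0.08 (0.708) and was detected on 2 of 4 unstimulated and 0 of 4 stimulated isoform A arrays.

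Rpl6 differed by 0.40 ± 0.18 (adjusted p = 0.0598, limma), and with the mouse as a block it passed the test (adjusted p = 0.00673). It was detected on 0 of 4 unstimulated and 3 of 4 stimulated isoform A arrays. The probe thus met the detection rule only through stimulated arrays, and a test on it is not independent of that rule. Its unnormalized intensities of 129.4 to 137.5 (unstimulated) and 123.7 to 149.9 (stimulated) overlapped. In mouse 4 the stimulated value was the lower one (log2 4.71 against 4.77). Against the lowest signal that counted as detected, the stimulated mean was at least 1.26-fold higher, with no allowance for spread. The bound takes, per unstimulated array, the larger of that signal and the probe's own.

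Whether the family as a whole rose or fell depended on how arrays were put on the same scale. Unstimulated arrays had a median unnormalized intensity of 311.5 ± 18.7 (SD, n = 4) over all genes tested, and stimulated isoform A arrays 233.6 ± 20.2. Over the members the medians were 14140 ± 766 and 14440 ± 2070, within the spread of the arrays. After background correction the members' median was therefore 70.2 to 80.5 times the median of all genes on unstimulated arrays and 122.6 to 134.8 times on stimulated isoform A arrays. In isoform B cells the ratio was 104.0 to 128.9 and in mock cells 108.1 to 130, so every stimulated array lay above every unstimulated one. The members' share of all signal moved less, from 8.80% ± 0.37 (SD, n = 4) in unstimulated to 9.28% ± 0.51 in stimulated isoform A cells, with overlapping ranges.

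Quantile normalization, the main setting, gives all arrays the same set of values and so allows the brightest probes little room to move together. With each array scaled to the median of all its probes, 51 of 57 members lay above 0, the members' median was 0.23 against -0.15 over all genes, and 8 were called higher and 1 lower (all genes called higher: 21.7%). With arrays scaled to the median of the probes detected on all 16 arrays, a setting added after the data were seen, the members' median was 0.56 against 0.09. Under it 52 members were called higher and 1 lower, where 34.9% of all genes were called higher. With background correction and no scaling at all, also added, the median was 0.04 against -0.30, and 2 members were called higher and 1 lower, where 62.2% of all genes were called. In the authors' deposited table the members' median was -0.12, with 7 called higher and 10 lower, where 66.1% of all genes were called. Relative to all genes, the members' median lay 0.38, 0.47 and 0.34 higher in the first 3 of these settings, and they lay 0.08 lower in the authors' deposited table and 0.01 lower in the main setting.

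Across 20 alternatives in all, 3 of the 14 calls held every time, namely Rpl7l1 (1.03 to 1.56 over the scalings and other whole-array settings), Rpl30 (0.53 to 1.08) and Rpl22 (-1.46 to -0.88). The other 5 members called higher, all but Rpl7l1 and Rpl30, kept their direction and held in 12 to 18 or 19 of the 20 alternatives. The 6 bright members called lower held in 12 to 17 and reversed with scaling on detected probes. Over the 6 scalings and other whole-array settings alone, each of these bright members held in 3. Rpl39, Rpl19 and Rpl10 reversed in 2 of them. The 5 members called higher held there in 3 to 5.

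**Figure D3:**
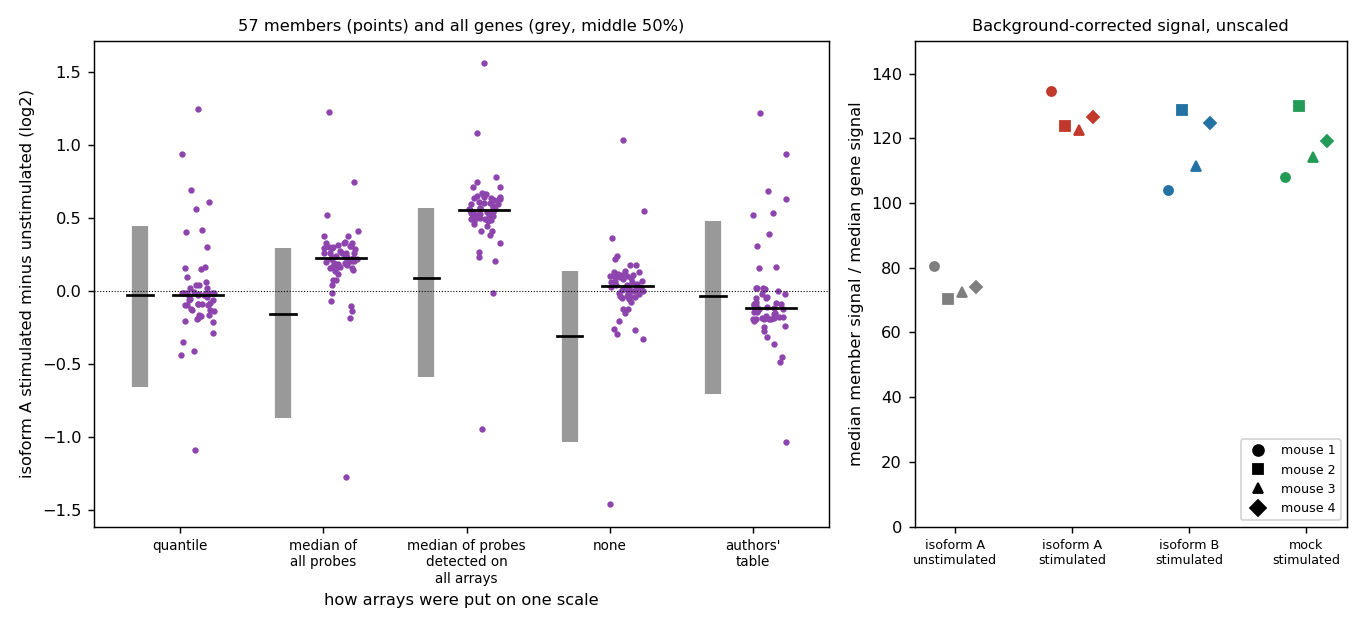
Left, differences of the 57 members (points, with their median as a line) between stimulated and unstimulated isoform A cells on the log2 scale under 5 ways of scaling, beside the middle 50% of all genes in grey with their median. Right, the median background-corrected signal of the members divided by that of all genes on each array, with no scaling, which is 70.2 to 80.5 on unstimulated and 104.0 to 134.8 on stimulated arrays.

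Stimulated mock cells, which carry no MALT1, were set against the same unstimulated isoform A arrays. The comparison therefore differs in both stimulation and MALT1, and it shares those 4 arrays with the previous one. In it 15 of 57 members were called (26.3%), 9 higher and 6 lower, where 65.9% of all genes were called, 29.7% higher and 36.2% lower. With the mouse as a block 17 members were called, 9 higher and 8 lower, where 5880 of all 8480 genes were called. The additional ones were Rps27 at -0.23 ± 0.12 (adjusted p = 0.0983, and 0.0345 with the block, limma) and Rps14, a 40S protein, at -0.19 ± 0.098 (0.0956, and 0.0299 with the block). In 13 members (22.8%) the arrays did not overlap, where 61.8% of all genes did not. The members' median was -0.02 against -0.01 over all genes. With scaling to the median of all probes 8 members were higher (all genes: 21.1%), and with scaling on detected probes 50 were (all genes: 35.2%). Rpl7l1 was at 1.10 in mock cells and 1.25 in isoform A cells, Rps15a at 1.08 and 0.94, Rpl21 at 0.54 and 0.69, and Rpl30 at 0.53 and 0.57. Rplp0 was at 0.56 and 0.42, Rps3a1 at 0.32 and 0.31, and all 6 of these were called in both comparisons. Rpl22l1 was at 0.37 in mock cells and not called there (adjusted p = 0.186, limma), but it was called, at 0.60, without the mock array of mouse 4.

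Among members lower in both, Rpl22 was at -0.76 in mock cells and -1.09 in isoform A cells, Rps9 at -0.39 and -0.35, Rpl23 at -0.39 and -0.41, and Rpl39 at -0.35 and -0.29. Rpl24, Rpl19 and Rpl10 were at -0.18, -0.15 and -0.10 in mock cells and did not pass the test. Called in mock cells and not in isoform A cells were Rpl6 (0.48), Rpsa (0.43) and Rpl4 (0.29) higher, with Rps21 (-0.29) and Rpl37a (-0.25) lower. Whether any of these differs between mock and isoform A is given by their direct comparison below. Rpl6 was detected on 0 of 4 unstimulated and 3 of 4 mock arrays, so its call is not independent of the detection rule. Its unnormalized intensities there, 129.4 to 137.5 and 131.3 to 163.7, overlapped. The bound on Rpl6, at least 1.33-fold, makes no allowance for spread. Of 9 markers of erythroid cells and granulocytes 2 were measured, Hba-a1 and Car2, 5, Alas2 and S100a8 among them, had probes that were not detected, and 2 had no probe under their symbol. The sum of the 2 was 191.4 to 938.5 on mock arrays against 31.4 to 112.2 on all others, and their part in the mock values was not tested.

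Genes that make and serve the ribosome were read in the same comparison, in which 29.6% of all genes were called higher and 36.8% lower. Of 27 measured genes for ribosome assembly and rRNA processing, 26 rose and 0 fell in isoform A cells, with a median of 1.79. Rrp9, a U3 snoRNP protein, was at 3.05, Grwd1, a nucleolar chaperone that binds Rpl3, at 3.02 and Rrp15, a pre-60S factor, at 2.53. Of 29 measured translation factors 18 rose and 1 fell, with a median of 0.37. Eef1e1, a component of the multi-tRNA synthetase complex, was at 2.45, the start-site scanning factor Eif1a at 1.49 and the release factor Etf1 at 1.40. In stimulated mock cells the same lists gave 26 higher and 0 lower with a median of 1.73, and 19 higher and 2 lower with a median of 0.50.

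Of 16 other genes measured that have known TOP mRNAs, 6 rose and 1 fell in isoform A cells, with a median of 0.17. Eif3h and Eif4b, both initiation factors, were at 0.80 and 0.73, and Tpt1 was at 0.51. Of 16 measured regulators of mTOR and of TOP mRNA translation, 7 rose and 6 fell, where 66.4% of all genes were called. Myc, which drives ribosome synthesis, was at 3.03, the kinase Rps6ka3 at 2.18 and Sesn1, an inhibitor of mTORC1, at -3.14. These lists were chosen with earlier results of the data known, and their counts are given as descriptions.

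Of the 27 members with a pyrimidine run near the start 5 were called in stimulated against unstimulated isoform A cells, and of the 22 without a run 7 were. Of all 57 members 24.6% were called, and of all genes 66.4%. The 27 members with a run had a median difference of -0.06, from -0.35 to 0.94, in isoform A cells, and the 22 without had a median of -0.02, from -1.09 to 1.25. Both extremes, Rpl22 and Rpl7l1, were without a run in the windows searched, as their sequences above show. The 26 members with CCGGAA had a median of -0.03 and the 23 without it a median of -0.05. These medians are descriptions, and the motifs were not tested as predictors.

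Among stimulated cells, isoform A was compared with mock to ask what the isoform adds once the receptor is engaged. In the main fit, which does not use the pairing by mouse, 0 of 57 members passed the test, where 4.86% of all genes did. There 3 members had an unadjusted p under 0.05. Blocking on the mouse gave 2 called members, where 745 of all 8480 genes were called. The members' median was -0.02, and 56 of 57 lay within 0.5 of 0. In 4 members (7.02%) the groups did not overlap, with Rpl22, Rpsa and Rplp0 lower and Rpl7l1 higher, where 10.1% of all genes did not.

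Rpl22 came closest, at -0.33 ± 0.093 (1.26-fold lower in isoform A, adjusted p = 0.0517, limma), lower in 4 of 4 mice. With the mouse as a block its adjusted p was 0.0153. It was called in 7 of 20 alternatives, with adjusted p-values from 0.0153 to 0.602 and differences from -0.37 to -0.25. Rpsa was at -0.51 ± 0.18 (adjusted p = 0.115, and 0.0422 with the mouse as a block). The group means of Rpsa were at least 1.24-fold apart, with no allowance for spread. Its probe was detected on 0 of 4 isoform A and 3 of 4 mock arrays, and its unnormalized intensities of 123.3 to 137.7 and 134.3 to 152.0 were near the arrays' median. Rpl24 was at -0.25 ± 0.12 (adjusted p = 0.243). With the mouse as a block, Rpl22 and Rpsa were thus the 2 of 57 members called, where 745 of all 8480 genes were. The erythroid and granulocyte markers above were higher on every mock array than on every isoform A array, and their part in these differences was not tested.

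Isoform B against mock gave 0 of 57 members past the test, where 1.86% of all genes passed, and 2 members had an unadjusted p under 0.05. The members' median was -0.05, and 5 members (8.77%), all lower, did not overlap between the groups, where 7.69% of all genes did not. The members with the lowest p were Rpl22 at -0.26 ± 0.093 (adjusted p = 0.213, limma), Rpl4 at -0.20 ± 0.082 (0.301) and Rpl10 at -0.13 ± 0.067 (0.483). Rpl4 had normalized log2 intensities of 11.18, 10.98, 11.07 and 11.22 in isoform B cells of mice 1 to 4 and 11.33, 11.29, 11.35 and 11.30 in mock cells. Rpl22 was lower than mock in 4 of 4 mice with either isoform. Both comparisons use the same mock arrays.

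Isoform A against isoform B also gave 0 of 57 members past the test, where 0.212% of all genes passed, and 1 member had an unadjusted p under 0.05. That member was Rps3, a 40S protein at the mRNA entry channel that in human T cells also binds the NF-kB subunit p65. Its normalized log2 intensities were 13.82, 13.71, 13.82 and 13.81 with isoform A and 13.59, 13.64, 13.56 and 13.62 with isoform B. The groups did not overlap, in this gene alone among members (1.75%, against 4.03% of all genes), and the difference was 0.19 ± 0.073 (adjusted p = 0.378, limma). Rps15 was at 0.13 ± 0.076 (0.611) and Rpl21 at 0.24 ± 0.14 (0.614). All 57 members lay within 0.5 of 0, from -0.21 to 0.26. A p that misses the threshold does not show that the isoforms act alike.

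**Figure D4:**
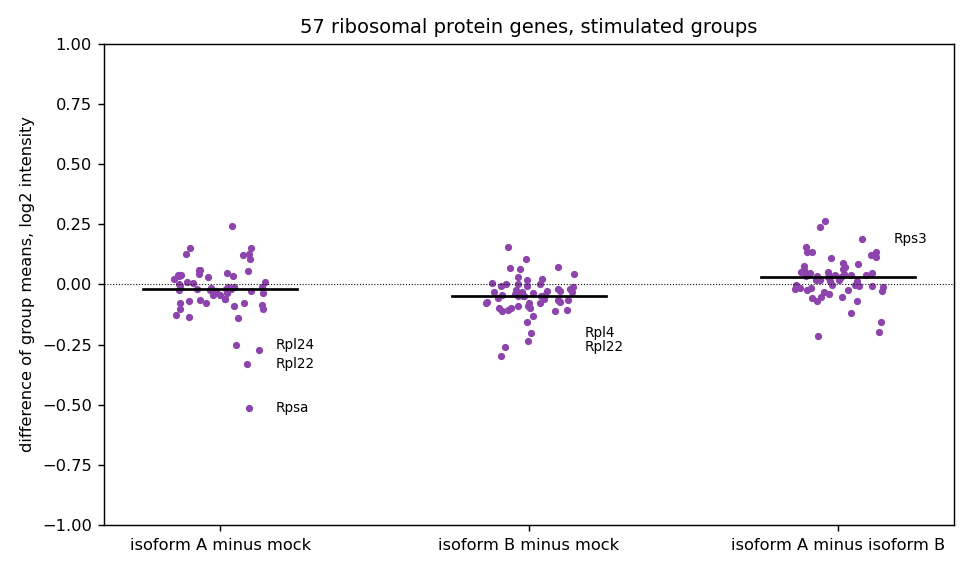
Differences of group means on the log2 scale for the 57 members in the 3 comparisons among stimulated groups, with the median as a line and the members of unadjusted p under 0.05 named. Rpsa at -0.51 is the only point beyond 0.5 from 0, and in the main fit 0 members passed after adjustment in any of the 3. With the mouse as a block 2 members passed in isoform A against mock, where 745 of all 8480 genes did.

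The translation and assembly lists gave 0 calls in these 3 comparisons. Of the 16 regulators, 2 were lower than mock with either isoform. Eif4ebp1, a repressor of cap-dependent initiation, was at -0.66 ± 0.18 with isoform A and -0.97 ± 0.18 with isoform B (adjusted p = 0.0400 and 0.00707, limma). Ddit4, an inhibitor of mTORC1, was at -0.70 ± 0.12 and -0.74 ± 0.12 (adjusted p = 0.00280 and 0.00360). With the mouse as a block, 3 regulators were also called higher with isoform A than with mock.

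Of the 57 members, 11 had more than 1 detected probe, with 12 further probes in all. In 3 genes a further probe differed by more than 0.5 from the brightest in stimulated against unstimulated isoform A cells. A dim probe of Rps19, at a mean of 162.5 in unstimulated and 185.9 in stimulated cells before normalization, was at 1.03 while the brightest was at -0.13. A probe of the 40S gene Rps24, at 614.5 and 803.8, was at 0.82 while the brightest was at -0.09. For Rpl23 the brightest probe was at -0.41 and the others at -0.01 and 0.17, so the call for Rpl23 rests on 1 of 3 probes. Smaller gaps also bear on calls. The other probe of Rps9 was at -0.17 (adjusted p over all detected probes = 0.1445, limma), so the call for Rps9 rests on its brightest probe. The other probe of Rpl31 was at 0.21 (0.0296) while the brightest, not called, was at -0.10. Ribosomal protein genes have many near-identical processed pseudogenes, and probe sequences were not used here, so which transcripts a probe reads was not tested.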

How the data were processed

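The authors deposited unnormalized intensity values per probe, linear mean bead signals that still held their background, judging by the values. GenomeStudio 2011.1 is named in the submitters' processing notes. Per the file headers, every signal came with a detection p-value. The authors' deposited value table of intensity values had the same rank order of probes on each array (rank correlation of 1) and column medians of 8.065 to 8.109. It was taken as linear and not centred by gene, its normalization is not given in the sources used here, and it served as an alternative.

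In R 4.3.3 with limma 3.58.1 (and statmod 1.5.0), normexp used the detection p-values to correct background, arrays were quantile-normalized, 16 was added and log2 taken. The annotation gave 1 symbol for 23978 of 25697 probes, several for 0 and none for 1719. The brightest of the 12344 detected probes stood for each gene. All 57 members matched RefSeq's gene table (GRCm38.p6), used for names. The 4 group means over 16 arrays were fitted with lmFit and eBayes (12 residual degrees of freedom, 2-sided), adjusted over 8480 genes per comparison, and called at 0.05. SE are of this fit.

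Replicate numbers stood for mice, so arrays of the same number were taken as matched by animal. The main fit of 4 group means did not use this matching. With group means removed, same-mouse arrays had a mean correlation of 0.289 across genes (24 pairs), against -0.0962 for the other 72 pairs. Fits blocked on the mouse were run as well and are given where they change a call. Named were the brightest and dimmest 6 members, up to 8 called each way, the 3 with the lowest p where under 3 were called, and a list of members with known individual roles. Members, lists and rules were chosen with earlier results of these data known. The fit was tested on simulated data. The number of arrays, 4 per group, limits the precision. Alternatives varied background, scaling, filter, probe choice, offset, variance model, block and arrays.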

Additional observations from a re-analysis of the deposited data

Results flagged for a closer look

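Of 115 sets of 4 values tested, 7 had a value standing far from the other 3, and chance flags about 1 in 20 (5%). In mock cells mouse 2 stood low for Rpl24, at a log2 intensity of 13.28 with the others at 13.34 to 13.35, and for Rps3a1, at 10.64 with the others at 10.96 to 10.98. In unstimulated cells mouse 2 was at 15.15 for Rplp1 while the others shared the top value of 15.26. In stimulated isoform A cells mouse 1 stood high for Rps19, at 14.7 against 14.55 to 14.57, and mouse 2 stood low for Rps3, at 13.71 against 13.81 to 13.82. The share of signal from member probes was 8.52% in stimulated isoform A cells of mouse 2, with the others at 9.44% to 9.61%, and 8.43% in mock cells of mouse 1, with the others at 9.46% to 9.59%.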

How the results depend on the processing

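The number of arrays and the dimness of Rpsa, Rpl6, Rpl22l1, Rpl21 and Rps15a limit what can be resolved, and bright members share a narrow range under quantile normalization. For stimulated against unstimulated isoform A cells, scaling to the median of all probes gave 9 called members, where 5238 of all 8480 genes were called. The members' median was 0.228, with Rpl39 (0.0451), Rpl19 (0.0732) and Rpl10 (0.147) reversed. Scaling to the median of probes detected on all arrays, added after the data were seen, gave 53 and 0.557, where 5802 of all genes were called. There the values were 0.269 for Rpl24, 0.205 for Rpl23, 0.328 for Rps9, 0.383 for Rpl39, 0.41 for Rpl19, 0.485 for Rpl10, 0.63 for Rps6, 0.665 for Rpl5, 0.478 for Rps27, 0.603 for Rps27l, 0.503 for Rpl3, 0.414 for Rps19 and 0.502 for Rps4x, all reversed. No scaling, also added, gave 3 and 0.0373, where 5275 of all genes were called. The authors' table gave a median of -0.116. The mean of detected probes put Rps19 at 0.452.

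For mock against unstimulated, scaling to the median of all probes gave 9 calls, 8 higher and 1 lower, and a median of 0.179. Of all 8480 genes 5147 were called there, and 21.1% were called higher. The authors' table gave a median of -0.0908. No scaling gave 4 calls, where 5129 of all genes were called. Scaling on detected probes gave 51 calls, 50 of them higher (all genes: 35.2%), and a median of 0.498, with Rpl24 (0.462), Rpl23 (0.142), Rps9 (0.234), Rpl39 (0.282), Rpl19 (0.429) and Rpl10 (0.48) reversed.

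For isoform A against mock, the replicate block gave 2 calls, where 745 of all genes were called. No background correction, detection on all arrays, the mean of probes, the offset of 50, trended robust variance and scaling on detected probes each gave 1, which was Rpl22. Under these settings 399 to 529 of all genes were called. The median was 0.0374 with scaling to all probes, 0.0537 on detected probes and 0.0275 with none. For isoform B against mock the last 2 gave -0.0121 and -0.0703, and for isoform A against B all probes gave 0.0933 and none 0.0916. The cause was not tested.

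Leaving out each array in turn gave 10 to 16 called members and a median of -0.0459 to -0.0272 for isoform A against unstimulated, 12 to 15 and -0.0426 to 0.00511 for mock against unstimulated, and 0 calls in the other 3, with medians of -0.0232 to -0.00517, -0.0624 to -0.0293 and 0.00871 to 0.0365. With the mouse as a block, mock against unstimulated gave 17 called members (all genes called: 5880 of 8480), and its 40S members called lower went from 2 to 4. Calls changed by the block are given with Rpl6, Rpl22, Rpsa, Rps27 and Rps14. A block on slide or scan was not run because the headers give neither.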
